A study of Mus musculus with 20 samples.

Results

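The core circadian clock genes were followed in mouse heart ventricle. They are the 10 genes Bmal1, Clock, Per1, Per2, Cry1, Cry2, Nr1d1, Nr1d2, Dbp and Tef, and all probe sets that the array's annotation links to them were taken, 12 of the 12488 on the array, which holds probe sets linked to a single gene for 8251 genes. Every gene had 1 probe set except Cry1, which had 3. The platform is an Affymetrix mouse oligonucleotide array, on which a probe set is a group of short probes for a transcript, and the deposited values are linear intensities. The study asked how the heart of FVBN mice responds to tTA, the tetracycline-controlled transactivator, a regulator of transgenes that carry its operator.

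The labels placed 19 arrays in 4 groups, all of ventricular tissue of FVBN mice. The Fvbn control group held 2 arrays of wild-type mice, numbered 8177 and 8182. FVBN +Doxy held 4 arrays of mice given Doxy, taken here as doxycycline, a tetracycline antibiotic that keeps tTA from binding DNA. The tTA group held 8 arrays of mice that express tTA, and tTA +Doxy held 5 arrays of such mice given Doxy. The labels' keywords name the alpha MHC promoter, which drives expression in heart muscle cells. The sources used here do not give age, sex, transgenic line, Doxy dose or the hour of tissue collection. No label says whether each array is a different animal, so the p-values reflect the spread between arrays, which may be technical. Array numbers do not mix between groups: the FVBN arrays run from 8177 to 8341 and the tTA arrays of both kinds from 7288 to 7488, with 9310 and 9322 apart, so a difference between cohorts and a difference between groups cannot be told apart.

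In the mammalian clock, Bmal1 pairs with Clock (or with its relative Npas2) and switches on genes that carry E-box sequences, among them the Per, Cry and Nr1d genes, Dbp and Tef. The Per and Cry proteins then block Bmal1 and Clock, and the Nr1d1 and Nr1d2 proteins (REV-ERB alpha and beta) repress Bmal1 through sites called ROREs. In heart, as in other tissues, Bmal1 transcripts therefore peak at about the opposite time of day from those of Dbp, Tef and the Nr1d genes, and Cry1 peaks later than the Per genes.

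Reference promoter windows of 3 members are shown, because between them they hold an E-box, a D-box and a RORE, the sites through which the clock's arms act. They come from RefSeq (build GRCm38.p6), each of 300 bases, 250 before a transcript start and 50 from it on, read 5′ to 3′ on the gene's strand. Capitals mark matches, on either strand, to the E-box CACGTG, the D-box TTATGNAA, to which Dbp and Tef bind, or the RORE, a longer pattern that ends in GGTCA. The Bmal1 window is chr7:113207261-113207560 on the + strand, that of Per1 is chr11:69098699-69098998 on the + strand, and that of Tef is chr15:81802423-81802722 on the + strand.
Bmal1: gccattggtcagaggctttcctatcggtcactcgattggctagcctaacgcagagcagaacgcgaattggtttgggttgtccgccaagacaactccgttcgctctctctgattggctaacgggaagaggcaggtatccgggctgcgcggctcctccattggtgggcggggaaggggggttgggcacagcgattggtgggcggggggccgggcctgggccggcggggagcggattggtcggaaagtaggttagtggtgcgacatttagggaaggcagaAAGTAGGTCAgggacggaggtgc
Per1: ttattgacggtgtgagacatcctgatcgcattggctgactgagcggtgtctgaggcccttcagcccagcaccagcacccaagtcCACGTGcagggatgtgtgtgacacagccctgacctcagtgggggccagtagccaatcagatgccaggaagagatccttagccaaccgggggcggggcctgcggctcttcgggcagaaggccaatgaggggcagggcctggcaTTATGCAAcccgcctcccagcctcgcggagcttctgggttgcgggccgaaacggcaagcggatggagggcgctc
Tef: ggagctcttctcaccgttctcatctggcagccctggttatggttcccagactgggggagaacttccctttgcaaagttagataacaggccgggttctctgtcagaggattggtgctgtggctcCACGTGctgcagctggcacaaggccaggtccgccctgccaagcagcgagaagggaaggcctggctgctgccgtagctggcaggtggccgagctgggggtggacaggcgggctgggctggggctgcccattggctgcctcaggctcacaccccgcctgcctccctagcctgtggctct

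The RORE of Bmal1 lay 27 bases after the start of this transcript. In Per1 the E-box lay 166 bases and the D-box 24 bases before the start, and in Tef the E-box lay 127 bases before it. Of the 32851 windows in the table, 0.606% held the RORE letters, 7.15% the E-box and 3.38% the D-box. A window of Nr1d1 held the related letters CACGTT 28 bases before the start, which 4.68% of all windows hold. Cry2 held these letters 166 bases before the start. Cry1 held them 79 bases and an E-box 60 bases before the start. The other window of Tef held an E-box, and the other windows of Bmal1 and Per1 held no match. Of the 10 genes, 9 had a window in the table, and no window of Dbp, Nr1d2 or Clock held any of the 4 letter patterns. The windows shown were chosen for their matches, so the shares of all windows beside them do not show an excess among the clock genes. A match describes letters and was not tested as a binding site.

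Across the arrays, median intensity ran from 60.7 to 62.5 and correlations between arrays of a group from 0.987 to 0.996. After quantile normalization, values were raised to a floor of 14.37 (3.85 on the log2 scale), and the brightest 60% of probe sets, 7453, were tested. This kept 1 probe set for each of 7 genes: Per1, Cry1, Cry2, Nr1d1, Nr1d2, Dbp and Tef. The probe sets of Bmal1, Clock and Per2 were too dim to be tested and are given as values, and the other 2 probe sets of Cry1 sat at the floor on all 19 arrays. Of 10 markers of ventricular heart muscle cells, 9 were on the array, and all 9 lay at or above the 95.5th percentile of intensity. Of the atrial markers, Sln lay at the 41.1st percentile, Myl7 at the 35.5th, Myl4 at the 58.3rd and Nppa at the 89.8th. Fewer cells of a type and less RNA per cell cannot be told apart in whole tissue.

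Dbp, a transcription factor of the PAR bZIP family and a direct output of the clock, had the widest range of the members. Its log2 intensity was 6.80 and 6.63 on the Fvbn control arrays and 5.90, 5.61, 5.58 and 6.38 on the FVBN +Doxy arrays. On the 8 tTA arrays it ran from 5.49 to 6.84 with a median of 5.95, and on the tTA +Doxy arrays it was 6.20, 6.13, 6.21, 6.40 and 5.94. All FVBN +Doxy and tTA +Doxy arrays lay below both control arrays, and so did every tTA array except 9322, at 6.84. Against Fvbn control, Dbp differed by -0.70 ± 0.28 in tTA (log2 fold change ± SE, limma adjusted p = 0.212, lower on 7 of 8 arrays) and by -0.85 ± 0.31 in FVBN +Doxy (limma adjusted p = 0.368, 4 of 4). Neither passed the threshold of an adjusted p below 0.05, and both comparisons rest on the same 2 control arrays.

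Tef, the relative of Dbp that binds the same D-box, had log2 intensities of 8.72 and 8.59 on the control arrays and 8.51, 8.25, 8.32 and 8.54 on FVBN +Doxy. It ran from 8.43 to 8.81 with a median of 8.51 on tTA arrays, and from 8.42 to 8.48 on tTA +Doxy arrays. FVBN +Doxy did not overlap the controls, at -0.25 ± 0.10 (limma adjusted p = 0.384), whereas tTA did, at -0.10 ± 0.09 (limma adjusted p = 0.629). Among the tTA arrays, 9322 and 9310 were highest for Tef, at 8.81 and 8.77, and they were also the 2 highest for Dbp.

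Nr1d2, which encodes REV-ERB beta, read 7.99 and 7.76 on the control arrays against 6.92, 7.14, 7.19 and 7.21 on FVBN +Doxy. The tTA arrays ran from 7.25 to 8.17 with a median of 7.39, and the tTA +Doxy arrays were 7.16, 7.38, 7.45, 7.71 and 7.40. FVBN +Doxy lay wholly below the controls, by -0.76 ± 0.20 (limma adjusted p = 0.254, 4 of 4 arrays). In tTA the difference from the controls was -0.37 ± 0.18 (limma adjusted p = 0.324, lower on 7 of 8 arrays), and array 9322 again lay above both controls. Without array 9322, Nr1d2 fell in tTA by 0.47 (limma adjusted p = 0.0325) and passed also in FVBN +Doxy against control (adjusted p = 0.0180). In the latter the difference stayed at -0.76, since array 9322 is in neither group and bears on it mainly through the spread estimated over all groups. Without both 9310 and 9322, Dbp fell in tTA by 0.91 (limma adjusted p = 0.0303), and Nr1d2 passed in both comparisons (adjusted p = 0.0484 in tTA and 0.0307 in FVBN +Doxy). These were the highest tTA arrays for Dbp, and 9322 was the highest for Nr1d2. Leaving them out therefore enlarges the fall in tTA, and these fits are no separate evidence for it.

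**Figure D1:**
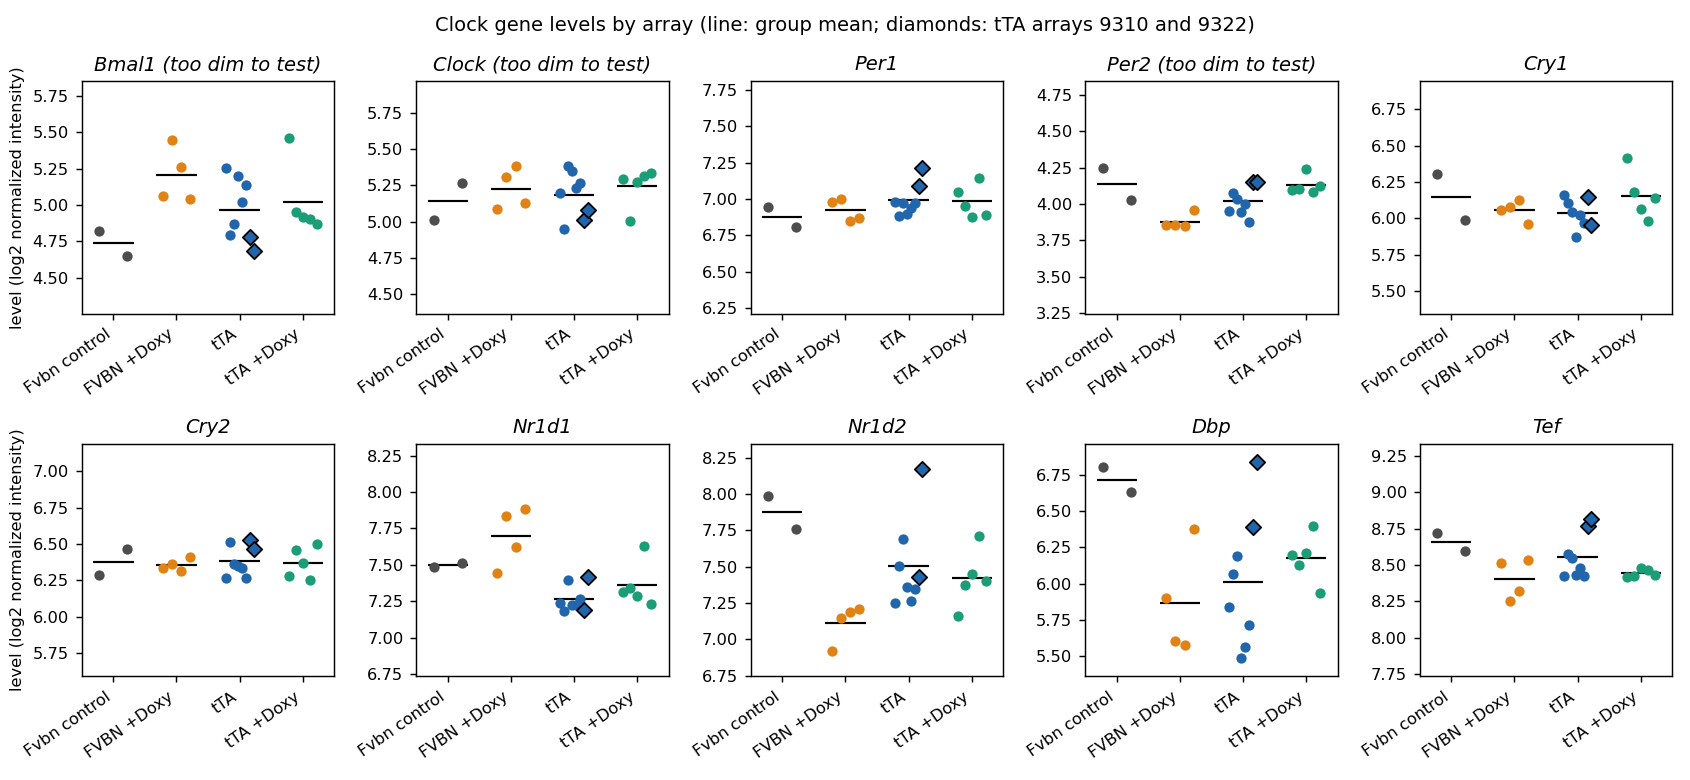
Log2 intensity of the clock genes on each array, by group, with a line at the group mean and diamonds for tTA arrays 9310 and 9322; panels have axes of their own. For Dbp, 2 control arrays at 6.80 and 6.63 lie above all arrays of the other groups except tTA array 9322 at 6.84.

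Nr1d1, which encodes REV-ERB alpha, had another order of groups than Nr1d2. It read 7.49 and 7.51 on the control arrays, 7.44, 7.84, 7.62 and 7.88 on FVBN +Doxy, and 7.31, 7.34, 7.29, 7.63 and 7.23 on tTA +Doxy. On tTA arrays it ran from 7.18 to 7.42 with a median of 7.23, below both controls on every array. Nr1d1 was lower in tTA +Doxy than in FVBN +Doxy by a log2 fold change of -0.34 ± 0.08 (limma adjusted p = 0.0172, 1.26-fold, on 5 of 5 arrays), although the groups overlapped through array 7486 at 7.63. It was the only one of the 7 tested members that passed in any comparison, where 5.86% of all probe sets tested passed. In tTA against Fvbn control it differed by -0.23 ± 0.10 (limma adjusted p = 0.219, 8 of 8 arrays), and in FVBN +Doxy against control by 0.20 ± 0.11 (limma adjusted p = 0.465).

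The call for Nr1d1 was lost without FVBN +Doxy array 8338 (-0.29, adjusted p = 0.0559) or 8341 (-0.28, adjusted p = 0.0783), or without tTA +Doxy array 7488 (-0.31, adjusted p = 0.0502). With a covariate for RNA quality, the log2 ratio of the control probe sets at the 3' and 5' ends of beta-actin, the difference was -0.28 (limma adjusted p = 0.0849). That ratio ran from 0.407 to 0.60 on FVBN +Doxy arrays and from 0.270 to 0.419 on tTA +Doxy arrays. Markers of cell types also differed in this comparison: all 6 fibroblast and all 5 macrophage markers were on the lower side in tTA +Doxy, and Fbln1 and Cd14 passed. So did Acta2, 1 of 3 smooth muscle markers tested, of which 1 lay on the higher side. Most other lists leaned lower too: 5 of 6 endothelial, 3 of 3 tested atrial and 5 of 9 ventricular markers, 1 of the last passing. The 2 tested markers each of erythroid, skeletal muscle and T and B cells were also lower, and the 1 tested adipocyte marker was higher. Summed fibroblast intensity was 3297 to 3615 in FVBN +Doxy and 3021 to 3304 in tTA +Doxy, summed macrophage intensity 624.8 to 689 and 557 to 624.8, and summed smooth muscle intensity 478 to 649 and 377 to 551. No fibroblast, macrophage or smooth muscle marker was at the floor, and the part of any cell type in the Nr1d1 result was not tested. Nr1d1 overlaps Thra, the thyroid hormone receptor alpha gene, in the genome, and the 2 Thra probe sets followed Nr1d1 loosely, with r = 0.25 and 0.17 over deviations from group means on 19 arrays.

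Per1, whose product joins the Cry proteins in repressing Bmal1 and Clock, differed from Fvbn control by 0.12 ± 0.08 in tTA (limma adjusted p = 0.460). Cry1 differed by -0.11 ± 0.09 (limma adjusted p = 0.566) and Cry2 by 0.01 ± 0.07 (limma adjusted p = 0.964), so that neither repressor separated tTA from control. Per1 ranged from 6.81 to 7.21 over all 19 arrays, with group means from 6.88 to 6.99. The sign for Cry1 turned with the control array left out, at 0.04 without 8177 and -0.27 without 8182. The bright Cry1 probe set carries the suffix that Affymetrix gives to probes shared by a sequence family, so its signal may include other transcripts.

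Bmal1, the activator, had its lowest group mean in Fvbn control and its highest in FVBN +Doxy, the groups where Dbp was highest and lowest. Its log2 intensity was 4.82 and 4.65 on the control arrays and 5.06, 5.45, 5.26 and 5.04 on FVBN +Doxy. On tTA arrays it ran from 4.68 to 5.25 with a median of 4.95, and on tTA +Doxy arrays it was 5.46, 4.96, 4.91, 4.91 and 4.87. Every FVBN +Doxy array lay above both controls, and tTA arrays 9310 and 9322, high for Dbp, were the 2 lowest tTA arrays for Bmal1, at 4.78 and 4.68. With all probe sets in the fit, Bmal1 differed by 0.47 ± 0.18 in FVBN +Doxy against control (limma adjusted p = 0.455) and by 0.23 ± 0.17 in tTA against control (adjusted p = 0.625). Clock, its partner, had group means from 5.14 to 5.25 and differed by no more than 0.09 in any comparison in that fit.

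Per2 was near the floor, at 4.25 and 4.03 on control arrays, 3.85, 3.85, 3.85 and 3.96 on FVBN +Doxy, and 4.09 to 4.24 on tTA +Doxy. With all probe sets in the fit it was higher in tTA +Doxy than in FVBN +Doxy by 0.25 ± 0.06 (limma adjusted p = 0.0333, 5 of 5 arrays), and 1 FVBN +Doxy array lay at the floor, which may understate the size. In the same fit the difference in Nr1d1 no longer passed (limma adjusted p = 0.0614).

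**Figure D2:**
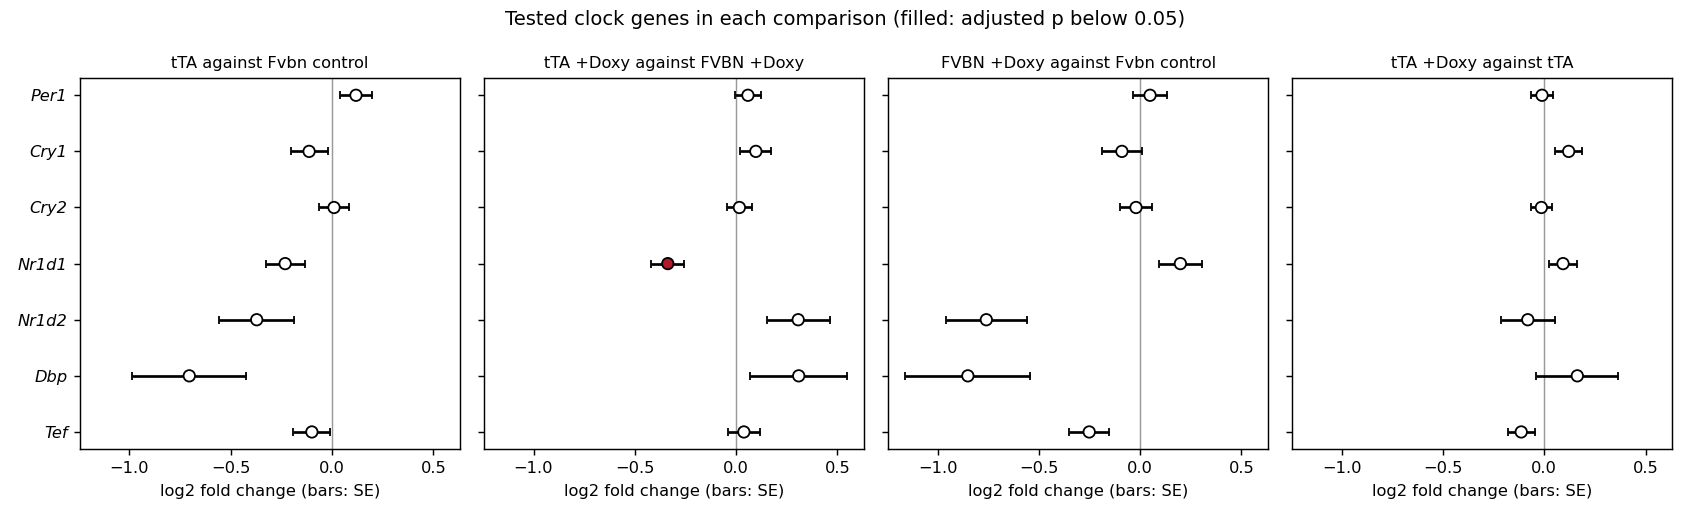
Log2 fold change ± SE of each tested clock gene in each comparison. Nr1d1 in tTA +Doxy against FVBN +Doxy, at -0.34, is the single called change.

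**Figure D3:**
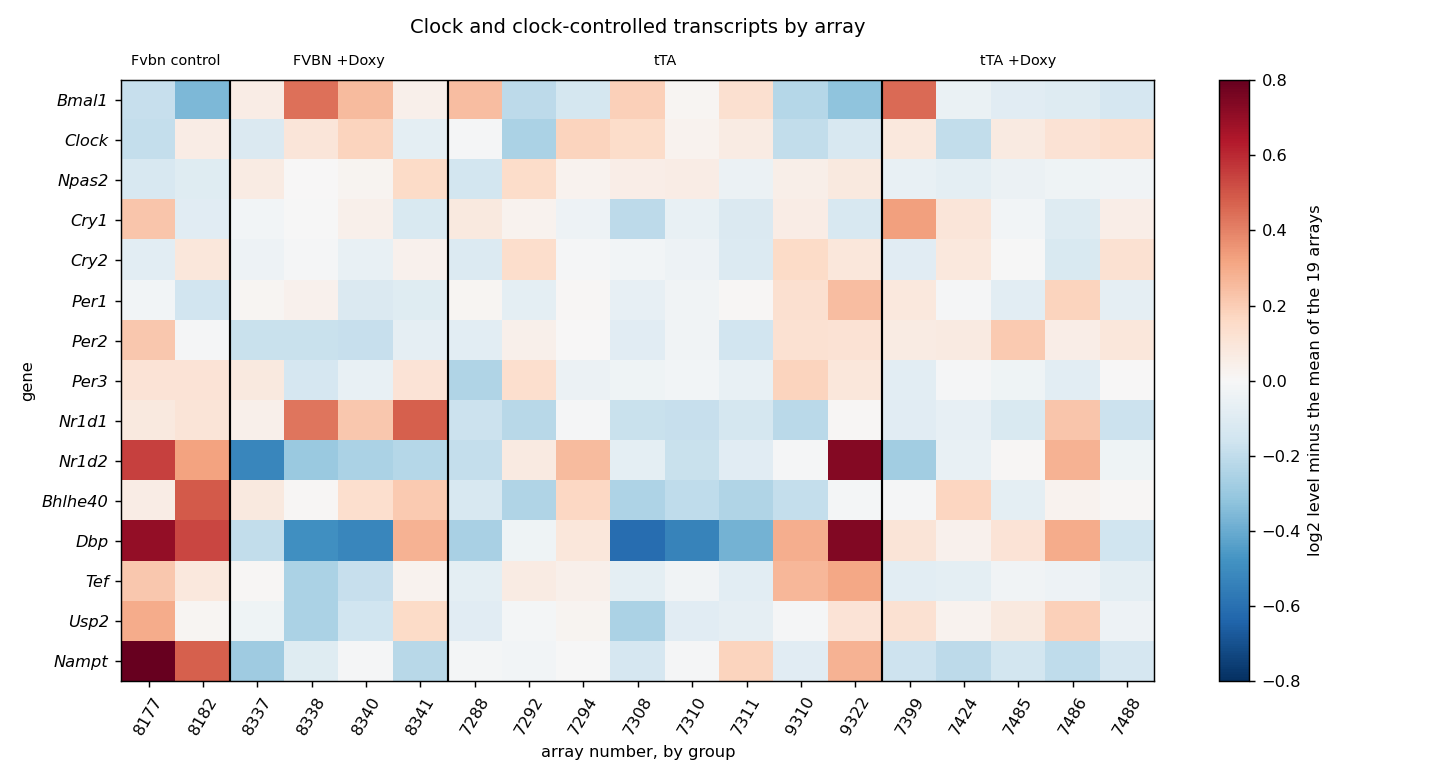
Difference of each gene from its mean over the 19 arrays, in log2 units, on every array, with red for higher and blue for lower. Dbp, Nr1d2 and Tef are red on the 2 control arrays and on tTA array 9322, where Bmal1 is blue.

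None of the 7 passed in tTA against Fvbn control, where 2.79% of all probe sets did, nor in FVBN +Doxy against control (0.0403%), tTA +Doxy against tTA (0.0671%) or the interaction (0.0134%). At an unadjusted limma p below 0.05 the counts of 7 were 2, 3, 0 and 2, where 16.7%, 11.8%, 7.65% and 14.6% of all probe sets lay below it, and 1 in tTA +Doxy against FVBN +Doxy, where 21.1% did. FVBN +Doxy and the controls did not overlap for Nr1d2, Dbp and Tef, 3 of 7 against 23.4% of all probe sets tested. Nr1d1 was the 1 of 7 that did not overlap between tTA and control, against 12.7%. None of the 7 was free of overlap between tTA +Doxy and FVBN +Doxy (9.71% of all) or between tTA +Doxy and tTA (0.389%). Of the genes too dim to be tested, Per2 did not overlap between tTA +Doxy and FVBN +Doxy. Bmal1 and Per2 did not overlap between FVBN +Doxy and the controls. The medians of the 7 log2 fold changes were -0.11 in tTA and -0.09 in FVBN +Doxy against control, beside 0.01 and 0.01 for all probe sets tested. In tTA +Doxy against tTA both medians were -0.01. In tTA +Doxy against FVBN +Doxy the median was 0.06, beside -0.01, with Dbp at 0.31 ± 0.24 (limma adjusted p = 0.482) and Nr1d2 at 0.31 ± 0.16 (limma adjusted p = 0.275). Each was higher than the FVBN +Doxy mean on 5 of 5 arrays, although the groups overlapped for both genes. In tTA +Doxy against tTA no member differed by more than 0.16, the value for Dbp (limma adjusted p = 0.903). The interaction, the change with Doxy in tTA mice less the change in FVBN mice, was 1.01 ± 0.37 for Dbp (limma adjusted p = 0.267) and 0.68 ± 0.24 for Nr1d2 (limma adjusted p = 0.266), neither past the threshold.

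The genes of the clock's arms were also averaged on each array. Per array, the mean difference from the 2 control arrays was taken over Npas2, the sole activator bright enough to be tested, and over 6 repressor and output genes (Per1, Per3, Nr1d1, Nr1d2, Dbp and Tef), without Cry1 and Cry2, which were given apart above. Npas2 averaged 0.17 ± 0.07 (SD, n = 4) in FVBN +Doxy, 0.14 ± 0.09 (SD, n = 8) in tTA and 0.06 ± 0.02 (SD, n = 5) in tTA +Doxy. The repressor and output genes averaged -0.29 ± 0.11, -0.23 ± 0.18 and -0.23 ± 0.09. Their members did not all lie on 1 side: Dbp and Nr1d2 had the largest differences from control (-0.85 and -0.76 in FVBN +Doxy, -0.70 and -0.37 in tTA), while Per1 lay above control at 0.05 and 0.12, on the side of Npas2, and Nr1d1 did so in FVBN +Doxy at 0.20. Within groups Npas2 did not run with Bmal1 or against Dbp: over deviations from group means on 19 arrays its r was 0.403 with Dbp and -0.617 with Bmal1. Npas2 was above the controls on 16 of 17 arrays and the repressor and output mean below them on 16 of 17, with tTA array 9322 the exception in the latter, at 0.14. The same 2 control arrays stand in every one of these differences, so the 3 groups are not independent of each other.

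An alternative chosen after seeing the data added Bmal1 and Clock to Npas2, and Per2 to the other arm. The activator mean was then 0.24 in FVBN +Doxy, 0.14 in tTA and 0.15 in tTA +Doxy, above the controls on 17 of 17 arrays, and the repressor and output mean was -0.28, -0.22 and -0.20. Which genes fall in each arm was decided with the earlier results known, so these means carry no test. No label gives the hour of collection, so its part in the pattern was not tested.

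**Figure D4:**
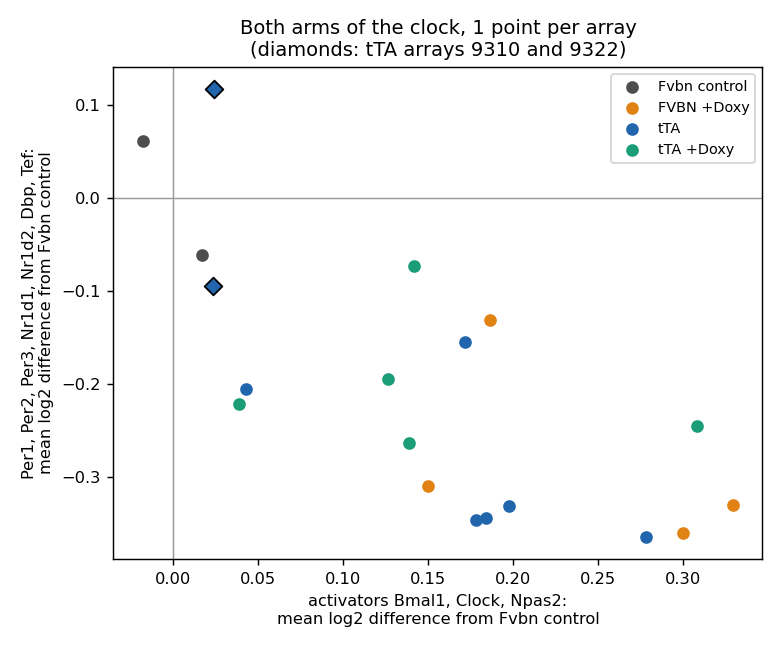
Mean log2 difference from the controls of the activators Bmal1, Clock and Npas2 (x axis) and of the 7 repressor and output genes (y axis), 1 point per array, with diamonds for tTA arrays 9310 and 9322. All 17 arrays of the other groups lie above 0 on the x axis and 16 lie below 0 on the y axis, the exception being tTA array 9322 at 0.12.

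Dbp and its fellow outputs varied together from array to array. Over 19 arrays Dbp and Tef had r = 0.787 and rho = 0.680 (permutation p = 5e-05 and 0.00157, adjusted over 12 tests to 0.0006 and 0.00948), with r = 0.651 without arrays 9322 and 8177. Within the 8 tTA arrays r was 0.920 (exact permutation p = 0.00112, adjusted p = 0.00446), whereas rho was 0.786 and did not pass (exact permutation p = 0.0279, adjusted p = 0.112). Without arrays 9310 and 9322, r was 0.763 within the remaining 6 tTA arrays (exact permutation p = 0.104, adjusted p = 0.313) and 0.752 over all 17 arrays (permutation adjusted p = 0.00564). The shuffles over all arrays ignored group, so differences between group means enter their p-values. Over deviations from group means, which remove the differences between groups, r was 0.888, for which no p was computed. Dbp and Nr1d2 had r = 0.750 and rho = 0.684 over 19 arrays (permutation p = 0.00019 and 0.00158, adjusted to 0.00114 and 0.00948), with r = 0.561 without arrays 9322 and 8177 and 0.854 within tTA (exact permutation p = 0.00756). By rank within tTA it did not pass either (rho = 0.714, exact permutation adjusted p = 0.173), nor did r = 0.797 without arrays 9310 and 9322 (exact permutation adjusted p = 0.217). Dbp and Per1 had r = 0.327 over 19 arrays (permutation p = 0.171) and 0.842 within tTA (exact permutation p = 0.00875), but 0.176 there without arrays 9310 and 9322, so the relation within tTA rests on those arrays.

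Pairs with Bmal1, Clock and Per2 were computed after seeing the data, since those genes are dim, as a family of 22 tests. Their shuffles over 19 arrays ignored group as well. Bmal1 ran against the outputs: with Dbp, r was -0.682 and rho -0.691 over 19 arrays (permutation p = 0.00138 for both, adjusted to 0.00677 and 0.00759), with r = -0.617 without arrays 9322 and 8177. With Tef, r was -0.777 and rho -0.871 (permutation p = 0.0001 and 2e-05, adjusted to 0.0022 and 0.00022), and r was -0.755 without arrays 7399 and 8338. With Nr1d2, r was -0.727 and rho -0.872 (permutation p = 0.00044 and 1e-05, the latter the smallest that the resamples can give). Within the 8 tTA arrays, Bmal1 had r = -0.895 with Tef (exact permutation p = 0.00154, adjusted p = 0.00677) and -0.845 with Dbp (exact permutation p = 0.00856, adjusted p = 0.0216). By rank, rho was -0.929 and -0.810 (exact permutation adjusted p = 0.00982 and 0.0399). Without arrays 9310 and 9322 the relation with Tef passed at r = -0.976 (exact permutation adjusted p = 0.0306) and that with Dbp did not, at r = -0.696 (adjusted p = 0.281). Over deviations from group means the values were -0.712 with Tef, -0.606 with Dbp and -0.566 with Nr1d2. Probe sets, 6693 in all, were also ranked from most to least like Bmal1 over these deviations. Tef was at rank 6596, Dbp at 6402 and Nr1d2 at 6297. Other probe sets thus ran against Bmal1 more strongly, led by Tub (r = -0.887) and Krt2 (r = -0.863). The opposite course was therefore not particular to the clock's outputs. For Nr1d1, r was 0.204 with Bmal1 (permutation p = 0.405) and -0.0858 over deviations. With Dbp it was 0.153 (permutation p = 0.531), 0.428 over deviations and 0.561 within tTA (exact permutation p = 0.149), none of them past the threshold where tested.

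**Figure D5:**
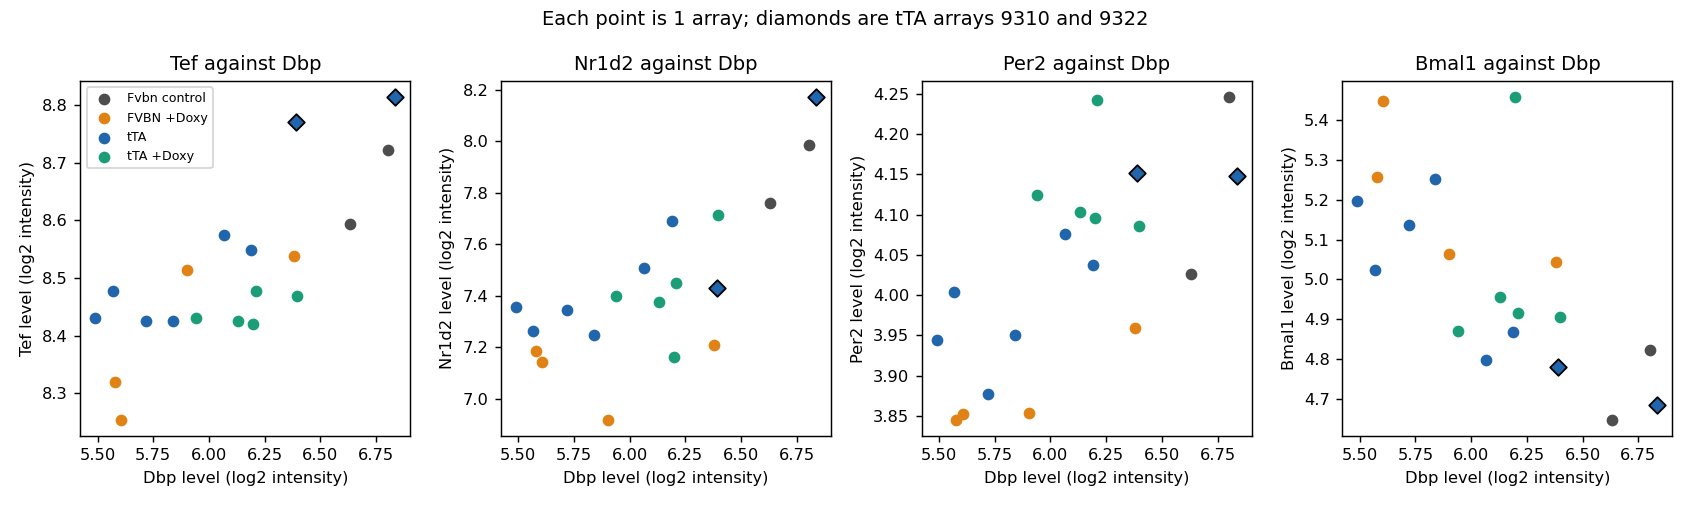
Log2 intensity of other clock genes against that of Dbp on the 19 arrays, coloured by group. Tef and Nr1d2 rise with Dbp (r = 0.787 and 0.750) and Bmal1 falls with it (r = -0.682).

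The probe sets most like Dbp over deviations from group means, among 6692 compared on 19 arrays, were those of Tef (r = 0.888), Mid1ip1 (0.852), Usp2 (0.818), Abl1 (0.779) and Casq2 (0.741). Usp2, a ubiquitin protease known as a rhythmic output gene, read from 8.16 to 8.71 and differed by -0.21 in tTA against control (limma adjusted p = 0.255). For Bmal1, the most alike were Ubxn1 (r = 0.911), Kat2a (0.890), Naxe (0.857), Fam136a (0.847) and Ap2m1 (0.845), none of them a clock gene of the lists used.

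Of 26 other clock genes, 15 were on the array and 12 were tested, and of 20 rhythmic output genes of heart 16 were on the array and 14 were tested. Bhlhe40, a repressor that competes with Bmal1 and Clock for E-boxes, was the 1 of the 12 that fell in tTA against control, where 2.79% of all probe sets tested passed, by 0.41 ± 0.10 on the log2 scale (limma adjusted p = 0.0262). Its control arrays read 6.99 and 7.42 and its tTA arrays from 6.68 to 7.09, and without control array 8182 the difference was -0.20 (limma adjusted p = 0.478). With the beta-actin covariate it was -0.37 (adjusted p = 0.320), and that ratio ran from 0.543 to 0.555 on control arrays and from 0.145 to 0.445 on tTA arrays. In the same comparison 1 of 6 endothelial, 1 of 3 tested smooth muscle and 1 of 9 ventricular markers fell (the last was Ryr2, and 7 of the 9 were on the lower side), and their part was not tested. None of the 12 passed in the other comparisons. Npas2 itself differed by 0.14 in tTA (limma adjusted p = 0.237) and 0.17 in FVBN +Doxy (limma adjusted p = 0.372) against control, Per3 by -0.11 in both (limma adjusted p = 0.520 and 0.613), and the bright Nfil3 probe set, for a repressor that competes at D-boxes, by 0.04 and 0.02 (limma adjusted p = 0.826 and 0.923).

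Of the output genes, Nampt, whose enzyme makes NAD precursor and whose transcription the clock drives, had the largest called change. Its log2 intensity was 7.77 and 7.42 on the control arrays, 6.66, 6.85, 6.93 and 6.73 on FVBN +Doxy, and 6.81 to 7.22 on tTA. Nampt fell by 0.63 ± 0.09 in tTA (limma adjusted p = 0.00026, 8 of 8 arrays) and by 0.80 ± 0.10 in FVBN +Doxy (limma adjusted p = 0.000371, 4 of 4), and no array of either group overlapped the controls. Without control array 8177 the adjusted p was 0.0571 in tTA and 0.0789 in FVBN +Doxy. Herpud1, of the endoplasmic reticulum stress pathway, fell by 0.29 ± 0.07 in tTA against control (limma adjusted p = 0.0265), a call lost without control array 8177 (0.319) or 8182 (0.133) and with the beta-actin covariate (-0.19, adjusted p = 0.494). Tspan4, a membrane tetraspanin, rose by 0.28 ± 0.07 in tTA +Doxy against FVBN +Doxy (limma adjusted p = 0.0162), but the difference without FVBN +Doxy array 8340 was 0.23 (adjusted p = 0.0677) and did not pass. The output genes called were thus 2 of 14 in tTA against control, 1 of 14 in FVBN +Doxy against control and 1 of 14 in tTA +Doxy against FVBN +Doxy, where 2.79%, 0.0403% and 5.86% of all probe sets passed. The list was chosen with earlier results of these data known, so these counts carry no test. The remaining tested output genes passed in no comparison, among them Pdk4, named after its values were seen, at 0.69 ± 0.33 in tTA against control (limma adjusted p = 0.301).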

How the data were processed

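Ventricular RNA was hybridised to 20 arrays, of which 19 carry a group. Per the deposited table the values are linear intensities, and how the authors summarised, corrected and normalized them is not given in the sources used here. Probe sets were named through the platform annotation, which links 10833 of 12422 probe sets (66 controls left out) to 1 gene, 396 to several and 1193 to none. The Bmal1 probe set is listed there under Arntl.

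The deposited intensities were quantile normalized in limma 3.58.1 (R 4.3.3), raised to the 10th percentile and put on the log2 scale, and the brightest 60% were tested. A linear model of 4 group means over all 19 arrays used variance moderation with a trend and the robust option, and p-values were adjusted by Benjamini-Hochberg over the probe sets tested in each comparison. Correlations used Python 3.11.15 with scipy 1.17.1 and 100000 resamples, and figures used matplotlib 3.10.9. The fit was tested on simulated data. Members, lists and comparisons were chosen with earlier results of these data known. The rule for other named genes took up to 4 called genes per list and comparison with the largest change, always Npas2, Nfil3, Hlf and Per3 (Hlf had no probe set linked to it), and the 5 probe sets most like Dbp and Bmal1. Alternatives tried were other normalizations, floors, filters, weights and subsets of arrays. The number of arrays limits the precision.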

Additional observations from a re-analysis of the deposited data

Results flagged for a closer look

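Each of 30 gene and group pairs with 4 to 10 arrays was searched for an array that lies apart, by Dixon's test, which chance alone marks in about 1 in 20 groups, and 5 were marked. Bmal1 on tTA +Doxy array 7399 was 5.46, against 4.87 to 4.96 on the other arrays of its group. Clock on tTA +Doxy array 7424 was 5.01, against 5.28 to 5.34. Per2 on tTA +Doxy array 7485 was 4.24, against 4.09 to 4.12, and on FVBN +Doxy array 8341 it was 3.96, against 3.85 at and near the floor. Nr1d1 on tTA +Doxy array 7486 was 7.63, against 7.23 to 7.34.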

How the results depend on the processing

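The count of clock genes called in tTA against Fvbn control, 0 of 7, became 2 (Dbp and Nr1d2) without tTA arrays 9310 and 9322. There 229 of 7453 probe sets passed. It ranged from 0 to 1 when single arrays were left out, and was 1 (Nr1d2) without 9322, where 240 of 7453 passed. The count in tTA +Doxy against FVBN +Doxy, 1, became 0 when only the arrays compared were fitted (Nr1d1 adjusted p = 0.0665) or the beta-actin covariate was added. In these settings 425 and 404 of 7453 probe sets passed. The count ranged from 0 to 1 with single arrays left out. With all probe sets it stayed at 1, but the gene was Per2, and 282 of 12422 probe sets passed. The count in FVBN +Doxy against Fvbn control, 0, became 1 (Nr1d2) when only the arrays compared were fitted (adjusted p = 0.0226), where 5 of 7453 probe sets passed. It was also 1 without tTA arrays 9310 and 9322, where 8 of 7453 passed. With single arrays left out it ranged from 0 to 1, and was 1 without 9322, where 7 of 7453 passed. The other 139 recomputed counts were within 1.5 times the reported count, and all 48 correlations recomputed under other normalizations and floors kept their call. These were pairs of Dbp with the other tested clock genes. The floors tried lie below every value of those genes, so the floor settings could not change these correlations or the counts of tested clock genes. Only the other normalizations could. The pairs with Bmal1, Clock and Per2, the dim genes, were not recomputed in this way. A change of sign in a pair that did not pass was not counted as a change. Without tTA arrays 9310 and 9322, 10 correlations no longer passed, 8 of them within tTA, where 6 arrays remain; over all arrays these were Bmal1 with Per2 (-0.542) and with Cry2 (-0.507). No called value changed sign. Bhlhe40, Herpud1, Nampt and Tspan4 kept their direction under every alternative; their calls were lost under 4, 6, 1 (in each comparison) and 2 of 30 alternatives. With the dim genes added, the activator arm moved to 0.24 in FVBN +Doxy and 0.15 in tTA +Doxy. No paired analysis was possible because the groups share no replicate numbers. Signal near the floor limits Per2, Clock and Bmal1, and 2 control arrays limit every comparison with Fvbn control.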

Other observations

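An array titled only with cardiac tTA expression has no group in the labels and entered no comparison. Its deposited intensity for Dbp was 81.4, within the 45.3 to 114 of the 19 grouped arrays and below both Fvbn control arrays (99.2 and 111). Nr1d2 was 167 (120 to 289 on the grouped arrays), Tef 388 (305 to 449), Nr1d1 187 (145 to 232) and Bmal1 34.4 (24.8 to 43.6). The other 5 clock genes also lay within the range of the grouped arrays.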
